A study of Mus musculus with 3 samples.

Results

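The sodium pump (Na,K-ATPase) of cultured mouse sensory ganglion cells is described here through 8 genes: the FXYD genes Fxyd1, Fxyd2, Fxyd3, Fxyd5, Fxyd6 and Fxyd7, which encode small single-span membrane proteins that regulate the pump, and Atp1b1 and Atp1b3, which encode beta subunits. They were chosen by symbol from 30142 genes named by the array's annotation, with the brightest probe set (the group of probes summarised into 1 value) taken for each gene, and 7 of the 8 had a probe set of their own. Fxyd7 was picked because it was lower in both SEMA3E-containing arrays, so its differences from control describe the choice and carry no test. The other members were listed as relatives of Fxyd7.

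The sodium pump moves sodium out of the cell and potassium in, at the cost of ATP, and thereby restores the gradients that action potentials run down. Its alpha subunit does the transport, the beta subunit is needed for the pump to fold and reach the membrane, and an FXYD protein can join them and tune the pump's affinity for sodium or potassium. In sensory neurons the pump adds to the hyperpolarisation that follows a train of spikes, and Fxyd2 in particular is known in mouse ganglia from nociceptors that bind isolectin.

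The RNA came from dissociated dorsal root ganglion cells of male ICR mice aged 8 to 10 weeks, kept in culture for 72 hours and labelled as neurons. Of 3 arrays, 1 was hybridised with RNA of cells exposed to recombinant SEMA3E (semaphorin 3E, a secreted guidance protein that binds plexin D1) at 1 µg/ml plus a SEMA3E-blocking IgG at 1 µg/ml. Another had RNA of cells exposed to SEMA3E at 1 µg/ml alone, and the remaining array had RNA of cells in control medium. All 3 media were DMEM with B27. Each medium had 1 array, so no difference below has an error or a p-value, and medium and array cannot be told apart. ICR mice are outbred, and no array with the IgG in the absence of SEMA3E was analysed here.

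The neuronal label could be checked against marker lists. All 15 pan-neuronal markers measured lay above the floor of 43.7 intensity units (the level below which a gene was treated as background). So did 10 of 11 Schwann cell, 9 of 9 satellite glial, 8 of 8 fibroblast and 6 of 9 macrophage markers. Of all 30142 genes, 17653 lay at or above this floor, so these counts alone do not show which cells were present. Some counted markers lay close to it, such as Gja1 (satellite glia) at 49.3 units in control medium. Others lay far above it, such as Pmp22 (Schwann cell) at 130696 units. In bulk RNA, fewer cells of a type and less RNA per cell cannot be told apart. Over the 17653 genes at or above the floor the arrays were nearly the same: Pearson's r across genes, which are not independent replicates, was between 0.9996 and 0.9997, and 74.9% of genes held an identical value on all 3 arrays. An identical value does not show equal RNA, because the processing that made the values was not stated and may hide small differences.

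The bases before the start of 3 members that differ in their values are shown for reference: Fxyd1, which was lower on the array with IgG, Fxyd3, which lies near it on chromosome 7 and held 1 value throughout, and Atp1b1, which was slightly lower on both SEMA3E-containing arrays. Each is the 250 bases before a start site, 5′ to 3′ on the gene's strand, from RefSeq (GRCm38.p6), which had an entry for 6 of the 8 members. The Fxyd1 window (chr7:31054854-31055103, minus strand) lies inside the annotated gene, before the start of a shorter transcript. The Fxyd3 window is chr7:31076698-31076947 and the Atp1b1 window chr1:164458356-164458605, both on the minus strand. Capitals mark matches to the CCAAT box (CCAAT) and the GC box (GGGCGG), read on both strands.
Fxyd1: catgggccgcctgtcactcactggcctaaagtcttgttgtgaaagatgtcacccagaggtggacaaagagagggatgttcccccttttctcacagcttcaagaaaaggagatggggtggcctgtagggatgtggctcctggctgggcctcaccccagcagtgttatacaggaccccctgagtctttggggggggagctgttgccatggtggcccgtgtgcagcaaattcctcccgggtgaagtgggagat
Fxyd3: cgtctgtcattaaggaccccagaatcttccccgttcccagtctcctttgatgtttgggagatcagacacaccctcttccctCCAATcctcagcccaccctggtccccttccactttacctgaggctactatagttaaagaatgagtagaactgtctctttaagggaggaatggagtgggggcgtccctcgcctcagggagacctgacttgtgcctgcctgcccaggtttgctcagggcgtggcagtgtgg
Atp1b1: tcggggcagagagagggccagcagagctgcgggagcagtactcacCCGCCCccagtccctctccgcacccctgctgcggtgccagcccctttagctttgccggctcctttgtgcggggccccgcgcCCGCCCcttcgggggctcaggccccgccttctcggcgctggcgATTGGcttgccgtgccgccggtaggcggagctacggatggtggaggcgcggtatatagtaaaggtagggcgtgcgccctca

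The Fxyd1 window held neither motif, the Fxyd3 window held 1 CCAAT box, and the Atp1b1 window held 1 CCAAT box and 2 GC boxes. Of 32851 windows of the same length in RefSeq, 33.8% held a CCAAT box and 32.7% a GC box. The letters of a TATA box (TATAAA, in 12.4% of all windows) and of an AP-1 site (TGANTCA, in 6.75%) were in none of these 3. G and C made up 57.2% of the Fxyd1 window, 55.2% of the Fxyd3 window and 70.4% of the Atp1b1 window, against a median of 52.4% over all windows. These are descriptions of letters, and no binding was measured.

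Fxyd7 encodes an FXYD protein of the brain that binds the pump and lowers its apparent affinity for external potassium. Its probe set (TC0700002787.mm.1) had 828 units with SEMA3E and blocking IgG, 897 units with SEMA3E alone and 1282 units in control medium. Both SEMA3E-containing arrays were lower than control, and the one with IgG was the lowest. On the scale of log2(intensity + 1), which is used for every difference below, Fxyd7 differed from control by −0.63 with SEMA3E and IgG, 0.646 times the control intensity. With SEMA3E alone it differed from control by −0.51, 0.7 times the control intensity. Set against SEMA3E alone, the array with IgG was lower by a further log2 difference of −0.12, so that the level with IgG lay further from control and not nearer to it. From the lowest difference upwards, Fxyd7 was number 20 of the 17653 genes for SEMA3E against control and number 19 for SEMA3E with IgG against control. These comparisons share the control array, and a deviation of that array would enter both. A difference of at least 1.2-fold below control in both SEMA3E-containing arrays was found for 65 of the 17653 genes (0.368%).

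**Figure D1:**
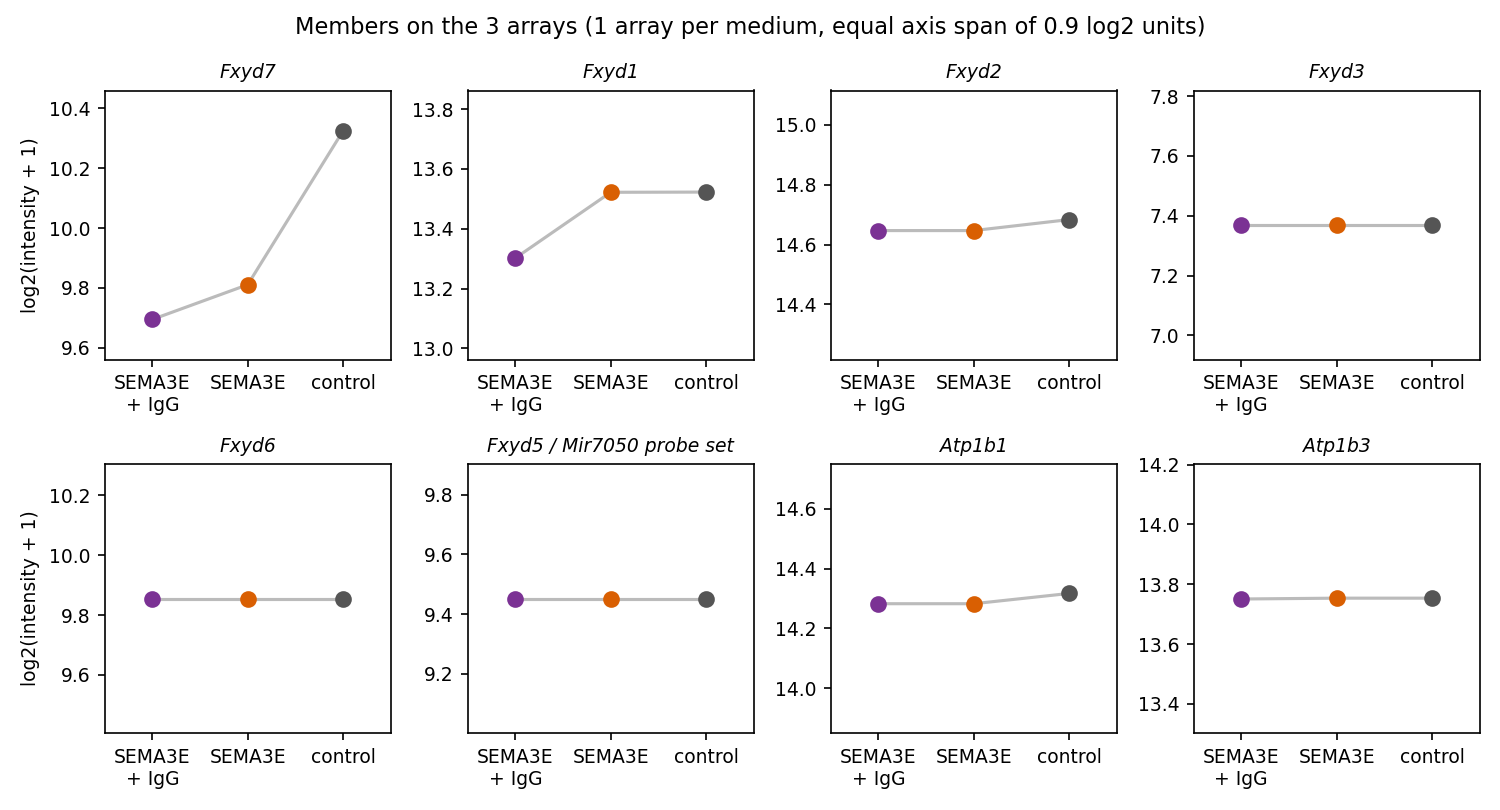
Level of each member on the scale of log2(intensity + 1) in SEMA3E with blocking IgG, SEMA3E and control medium, 1 point per array, with lines joining the points of 1 gene and the same axis span in every panel. Fxyd7 lies at 9.69, 9.81 and 10.33 in that order, Fxyd1 is lower on the array with IgG, and the remaining panels are flat or nearly so.

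Fxyd1 encodes phospholemman, an FXYD protein best known from heart muscle, where kinases phosphorylate it to relieve its inhibition of the pump. It had 10097 units with SEMA3E and IgG, 11761 units with SEMA3E alone and 11766 units in control medium. The array with IgG stood below the others, which were nearly equal. The log2 difference of the array with IgG was −0.22 from control and −0.22 from SEMA3E alone, 0.858 and 0.859 times those levels. SEMA3E alone differed from control by −0.0007, a difference that turned positive after loess, median centring or quantile normalization. Fxyd1 thus differed between the array with IgG and both others, whereas Fxyd7 differed between control and both others. Of the satellite glial markers on that array, 3 of 9 were lower, 0 higher and 6 identical against SEMA3E alone. In that comparison 10.3% of all genes at or above the floor were lower and 10.2% higher. Against control, where 11.4% of genes were lower and 7.59% higher, 2 of the 9 satellite glial markers were lower, 1 higher and 6 identical. Most of the gap in their sum between the SEMA3E-containing arrays was Fabp7, with 3631 units with SEMA3E and IgG, 3970 units with SEMA3E alone and 3631 units in control medium. Their summed intensity was 14388 with SEMA3E and IgG, 14814 with SEMA3E alone and 14918 in control medium. Schwann cell markers had 2 of 10 lower, 0 higher and 8 identical against SEMA3E alone, with sums of 148100, 149137 and 150532 in the same order of media. Their part in the Fxyd1 value was not tested.

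Fxyd2 encodes the gamma subunit of the pump, which lowers its affinity for sodium in kidney. It had 25647 units on both SEMA3E-containing arrays and 26308 units in control medium. The log2 difference from control was −0.037 on each of them. Fxyd6, an FXYD gene of the nervous system, held 925 units on all 3 arrays. Fxyd3, an FXYD gene known mostly from epithelia and tumours, held 164 units on all 3 arrays, also above the floor. Fxyd5 encodes dysadherin, an FXYD protein that also alters cell adhesion, and its single probe set is annotated to the microRNA gene Mir7050 as well, so the value cannot be given to either gene. That shared probe set held 699 units on all 3 arrays, and it is left out of the counts below.

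Atp1b1 encodes the beta subunit found with most pumps, and Atp1b3 a further beta subunit of wide expression. Atp1b1 had 19930 units on both SEMA3E-containing arrays and 20409 units in control medium, a log2 difference of −0.034 for each. Atp1b3 had 13783 units with SEMA3E and IgG, 13809 units with SEMA3E alone and 13809 units in control medium. Its array with IgG differed from control by −0.0027, which turned positive after loess or median centring. A second probe set annotated to both Atp1b3 and the predicted gene Gm1848 held 203 units throughout and was not counted.

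**Figure D2:**
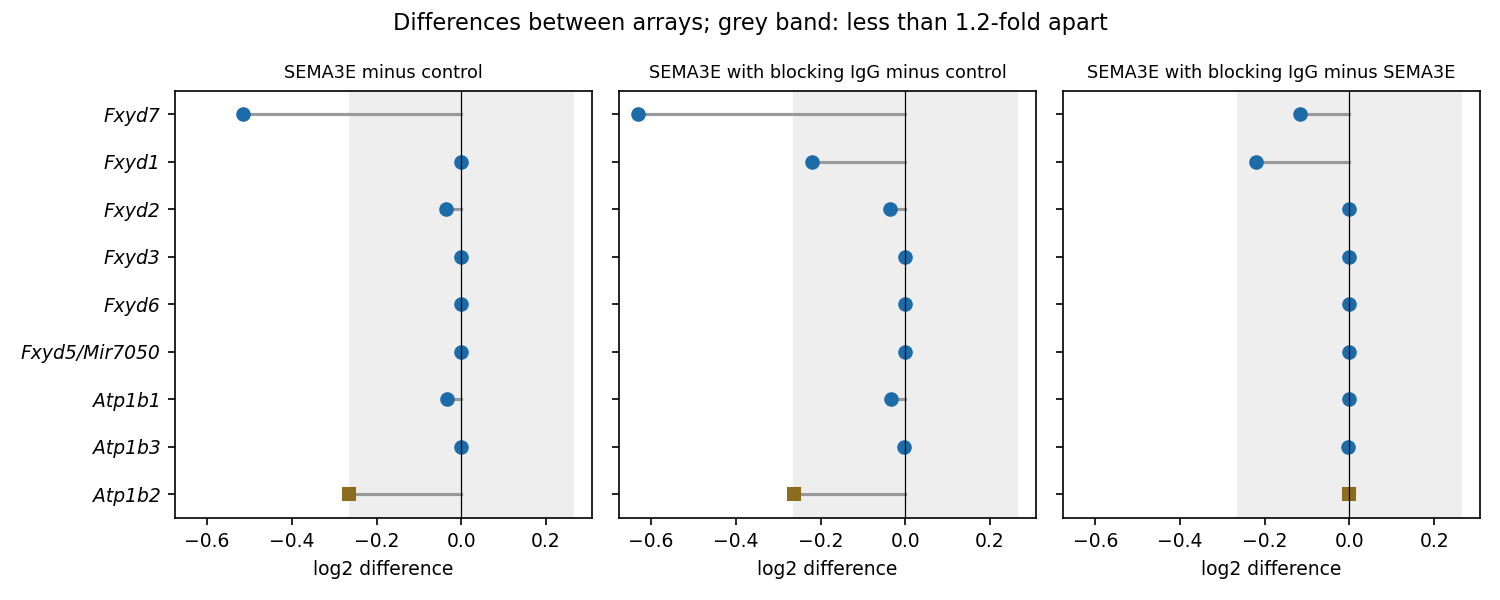
Log2 differences of the members (circles) and of Atp1b2, a beta subunit from the pathway lists (squares), in the 3 comparisons, each from 1 pair of arrays. The grey band holds differences below 1.2-fold, and among the members Fxyd7 alone leaves it, in both comparisons with control.

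Counts over the 7 members with a probe set of their own include differences as small as those of Fxyd1 and Atp1b3 above, and at least 4, 3 and 3 of the lower members below stayed lower under every scaling tried. SEMA3E with IgG against control had 5 lower, 0 higher and 2 identical, where 11.4% of the 17653 genes were lower and 7.59% higher. SEMA3E against control had 4 lower, 0 higher and 3 identical, where 12.3% of genes were lower and 6.21% higher. SEMA3E with IgG against SEMA3E alone had 3 lower, 0 higher and 4 identical, where 10.3% were lower and 10.2% higher. Within the brightness range of the members (9747 genes), 14.8%, 16% and 11.9% were lower in these comparisons in turn. The choice of Fxyd7 used both comparisons with control, so nothing is read from its place in these counts. The median log2 difference of the members was −0.034 for SEMA3E with IgG against control, −0.0007 for SEMA3E against control and 0.0000 for the comparison between the SEMA3E-containing arrays, and the median over all genes was 0.0000 in each. Among members lower than control, differences other than those of Fxyd7 and Fxyd1 were at most −0.037 in size.

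Fxyd7 was the single member of the 7 at least 1.2-fold apart in each comparison with control. Of all genes, 1.35% were that far apart for SEMA3E with IgG against control and 1.16% for SEMA3E against control. At 1.5-fold, Fxyd7 passed with IgG (1 of 7 members, 0.204% of all genes) and did not pass with SEMA3E alone (0 of 7, 0.17% of all genes). Fxyd7 was picked for being lower on both SEMA3E-containing arrays, so nothing is read from its place in these counts either. Between SEMA3E with IgG and SEMA3E alone 0 of the 7 members reached 1.2-fold, against 1.29% of all genes, and 0 reached 1.5-fold, against 0.136%.

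**Figure D3:**
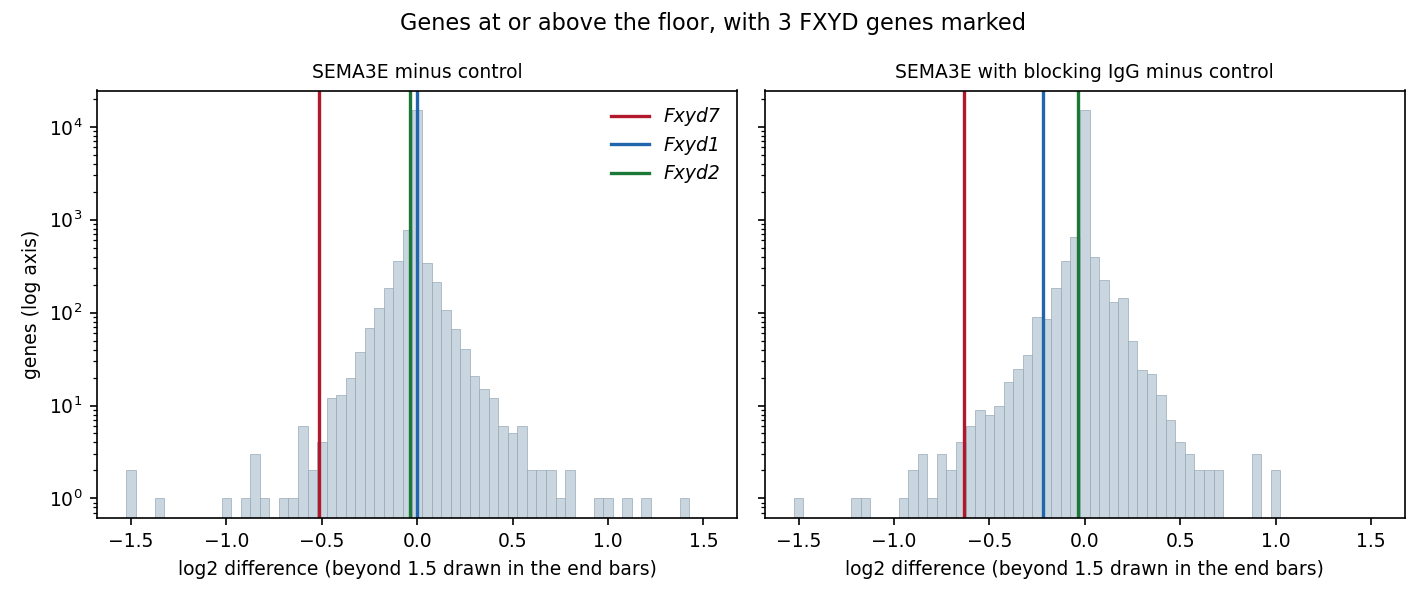
Number of genes at or above the floor (17653 in all, log axis) by log2 difference for both comparisons with control, with vertical lines at Fxyd7, Fxyd1 and Fxyd2. Fxyd7 stands at −0.51 and −0.63 in the thin lower tail, and Fxyd2 stands at −0.037 beside the tall bar of genes at or near 0.

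A pattern shared by Fxyd2 and Atp1b1 was an identical value on both SEMA3E-containing arrays that lay below control. It occurred in 2 of the 7 members and in 577 of the 17653 genes (3.27%). Within the brightness range of the members it occurred in 4.33% of genes. Of the 15 pan-neuronal markers, 6 had it: Tubb3, Snap25, Rbfox3, Syp, Nefm and Nefh. Tubb3, neuronal beta-tubulin, had 11305 units on both SEMA3E-containing arrays and 12589 units in control medium, a log2 difference of −0.16. The pan-neuronal markers as a whole had 9 of 15 lower and 0 higher in each comparison with control. At least 8 of the 9 stayed lower under every scaling tried. Of all genes at or above the floor, 11.4% were lower and 7.59% higher for SEMA3E with IgG against control. For SEMA3E against control, 12.3% were lower and 6.21% higher. The summed intensity of the pan-neuronal markers was 426704 with SEMA3E and IgG, 428879 with SEMA3E alone and 434895 in control medium. Uchl1, a neuronal ubiquitin hydrolase with 205992 units on all 3 arrays, makes up much of that sum. Whether neuronal content had a part in the Fxyd7, Fxyd2 and Atp1b1 values was not tested.

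Fxyd7 lies in a row of FXYD genes on chromosome 7. In RefSeq order (GRCm38.p6, used for order only) Fxyd5, Fxyd7, Fxyd1, Lgi4 and Fxyd3 follow each other, apart from 2 noncoding genes between Fxyd5 and Fxyd7. Within 100 kb of Fxyd7 there were 15 other genes, of which 9 had a probe set of their own and 7 lay above the floor. For SEMA3E with IgG against control, Fxyd1 alone of these 7 was lower and 0 were higher, where 11.4% of all genes were lower and 7.59% higher. For SEMA3E against control 2 of the 7 were lower and 0 higher, where 12.3% of all genes were lower and 6.21% higher. These 2 were Fxyd1, by −0.0007, and Gramd1a, which encodes a sterol transfer protein, by −0.10. Gramd1a had 512 units with SEMA3E and IgG, 476 units with SEMA3E alone and 512 units in control medium. The array with SEMA3E alone was thus the low one, unlike for Fxyd7.

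Next to Fxyd1, the gene Lgi4, which encodes a secreted protein needed for Schwann cells to myelinate, held 681 units on all 3 arrays. Usf2, a helix-loop-helix transcription factor, held 5207 units. Lsr, a lipoprotein receptor also found at cell junctions, held 46.9 units and Hamp, the iron hormone hepcidin, 44.5 units, both close to the floor of 43.7. Fam187b at 17.0 units and Hpn, which encodes the protease hepsin, at 39.4 units lay below it. Each of these 6 genes was identical on the 3 arrays, as were 74.9% of all genes at or above the floor.

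**Figure D4:**
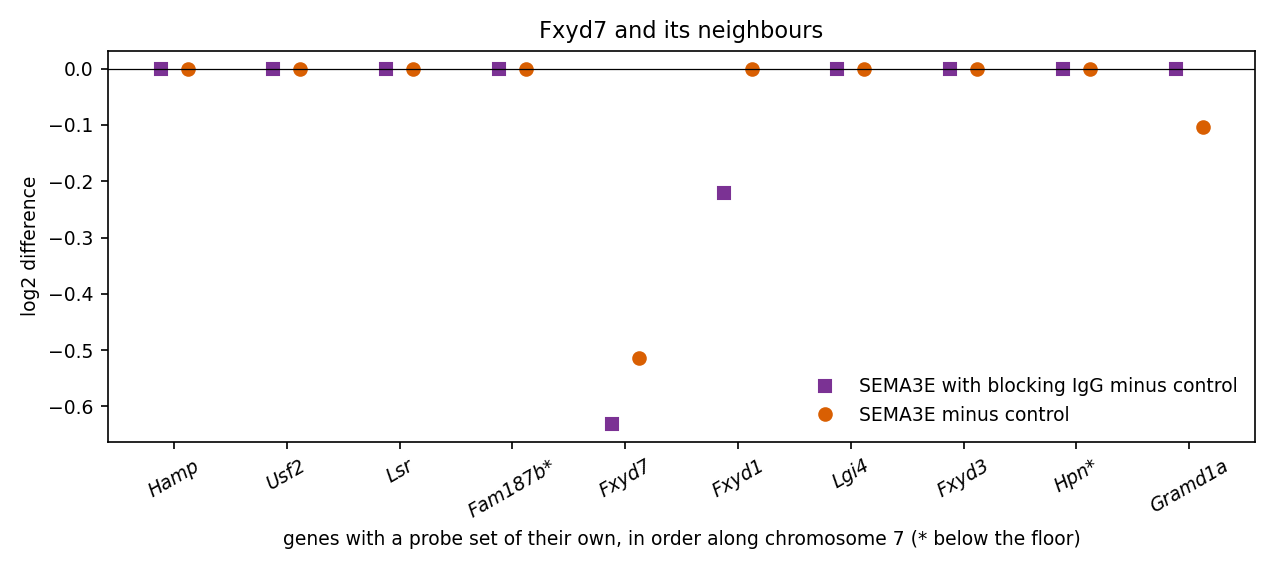
Log2 difference from control of Fxyd7 and the 9 genes within 100 kb that have a probe set of their own, in their order along chromosome 7, for SEMA3E with blocking IgG (squares) and SEMA3E alone (circles). Fxyd7 stands at −0.63 and −0.51, Fxyd1 at −0.22 in the first comparison and Gramd1a at −0.10 in the second, and every other point is at or within 0.0007 of 0.

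The 5 genes whose pair of differences from control lay nearest to that of Fxyd7, by Euclidean distance over those 2 log2 differences, were Gpr37l1, Bcl2a1a, Ctla2a, Cdr1 and Neto1, at distances from 0.060 to 0.158. Gpr37l1, a receptor gene of glia, was the nearest, with 536 units with SEMA3E and IgG, 608 units with SEMA3E alone and 833 units in control medium. Neto1, an auxiliary subunit of glutamate receptors, had 1454 units on both SEMA3E-containing arrays and 2025 units in control medium. Ctla2a had 1473, 1806 and 2452 units in the same order of media, Cdr1 had 1746, 1967 and 2590 units, and Bcl2a1a had 206, 245 and 335 units. Apart from Neto1, each was lowest on the array with IgG, as Fxyd7 was. The likeness rests on 3 arrays, and the probes of Bcl2a1a and Ctla2a may also read near-identical copies of those genes.

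The rest of the sodium pump and its partners came from lists of 48 genes, 38 of them measured and 25 above the floor. Of these 25, 2 were lower and 0 higher for SEMA3E with IgG against control, 2 lower and 1 higher for SEMA3E against control, and 1 lower and 1 higher between the SEMA3E-containing arrays. Over all genes at or above the floor, 11.4%, 12.3% and 10.3% were lower in these comparisons in turn, and 7.59%, 6.21% and 10.2% higher. The single gene of the 25 at least 1.2-fold apart was Atp1b2, the beta subunit also known as an adhesion molecule on glia. It was so in each comparison with control, where 1.35% of all genes were that far apart with IgG and 1.16% with SEMA3E alone. Atp1b2 had 183 units on both SEMA3E-containing arrays and 220 units in control medium, a log2 difference of −0.2638 for each and 0.832 times the control intensity. It passed 1.2-fold (0.2630 in log2 units) narrowly and no longer did so after median centring (−0.2577) or with an offset of 16 (−0.2456), nor after loess for the array with IgG (−0.2620). Atp1b2 had the same pattern as Fxyd2 and Atp1b1, with equal values on both SEMA3E-containing arrays.

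Atp1a4, an alpha subunit known from sperm, held 33.4 units throughout, below the floor. Atp1b4, a muscle protein related to the beta subunits, held 17.3 units and Fxyd4, an FXYD gene of the kidney collecting duct, 31.4 units, both below the floor. The gastric and colonic proton pump genes Atp4a, Atp4b and Atp12a, all 3 relatives of the sodium pump, also lay below it.

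Of 11 genes for proteins that interact with the pump or its regulators, 10 were identical on all 3 arrays, including the kinase genes Prkaca at 763 units and Prkca at 3726 units. The exception was Nkain4, which encodes a partner of the pump's beta subunit, with 82.3 units with SEMA3E and IgG, 89.1 units with SEMA3E alone and 88.6 units in control medium. Its array with IgG differed from control by −0.105 and from SEMA3E alone by −0.114. All 4 calcium pump genes above the floor were identical on the 3 arrays, among them Atp2b1, the plasma membrane calcium pump, at 3089 units. The share over all genes at or above the floor, to be set beside both counts, was 74.9%.

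Of 9 sodium-coupled exchangers and cotransporters 8 were identical on all 3 arrays, where 74.9% of all genes at or above the floor were. Slc12a2, which loads sensory neurons with chloride, was among the 8, at 580 units. Slc24a2, a potassium-dependent sodium and calcium exchanger, had 800 units with SEMA3E and IgG, 788 units with SEMA3E alone and 800 units in control medium. That is a log2 difference of −0.022 for SEMA3E against control.

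Cell type markers gave the following values beside Fxyd7. In large-diameter neuron markers, the member furthest apart was Pvalb, the parvalbumin gene of proprioceptors, with 280 units with SEMA3E and IgG, 282 units with SEMA3E alone and 367 units in control medium. Of the other 5 markers above the floor the one furthest from control was Cntnap2 (0.051 with SEMA3E and IgG), and the sum of the list was 4624, 4587 and 4689 units in the same order of media. In nociceptor markers, where Fxyd2 is known, 7 of 9 were identical on all 3 arrays, against 74.9% of all genes at or above the floor. Ret, a receptor of glial-derived neurotrophic factors, had 13902, 13444 and 14354 units in that order of media. The nociceptor sum was 22650, 22197 and 23106 units.

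Among satellite glial markers Kcnj10, the potassium channel gene of these cells, was furthest from control on the array with IgG, with 273 units there, 337 units with SEMA3E alone and 399 units in control medium. Pmp2, a myelin lipid-binding protein and the Schwann cell marker furthest apart, had 3958, 4744 and 5868 units in the same order. Ogn, a matrix proteoglycan and the fibroblast marker furthest apart, had 861, 1034 and 1536 units. All 3 were ordered as Fxyd7 was, lowest with IgG and highest in control medium. Fbln5, a satellite glial marker with 1873, 1897 and 2300 units, and S100b, the other Schwann cell marker that differed, with 5732, 5984 and 6254 units, had the same order. Other members of these lists went the other way. Mgp, a fibroblast marker, had 3796, 3793 and 3182 units, and Ednrb, a satellite glial marker, had 1218, 1218 and 1196 units. Fabp7, also a satellite glial marker, was higher than control with SEMA3E alone. Of these lists, 5 of 9 satellite glial, 8 of 10 Schwann cell and 5 of 8 fibroblast markers were identical on all 3 arrays. Of all genes at or above the floor, 74.9% were. Macrophage markers were led by Lyz2, lysozyme, which had 2348, 2480 and 2171 units and was thus higher than control on both SEMA3E-containing arrays. Which cells held the Fxyd7 RNA was not tested.

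**Figure D5:**
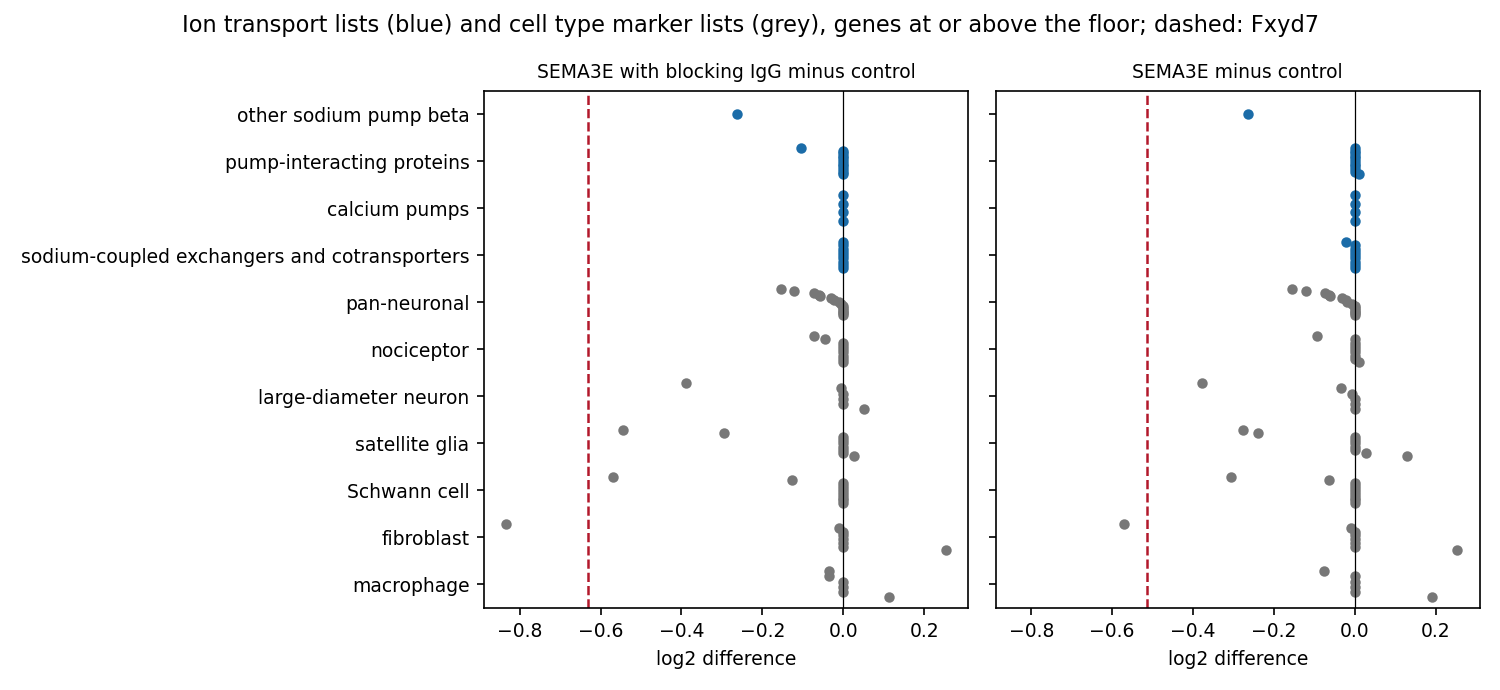
Log2 differences from control of the genes above the floor in 4 ion transport lists (blue) and 7 cell type marker lists (grey), 1 point per gene, for SEMA3E with blocking IgG and for SEMA3E alone, with Fxyd7 as a dashed line. Most points stand at 0, and Ogn, at −0.83 and −0.57, is the point that lies beyond Fxyd7.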

How the data were processed

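The deposited values are probe set intensities on a linear scale. Per the submitters' processing notes, the authors used Affymetrix Expression Console to make them. RNA was isolated with TRIzol and a column kit and labelled with the GeneChip WT Pico kit, per the labels' protocols. Its version, the genome build and the summary and normalization steps were not stated in the sources used here.

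From these, log2(value + 1) was computed for 65956 probe sets. Genes were named from 30604 probe sets with a single symbol, while 2146 had several symbols and 33206 none, and 827 symbols were updated through RefSeq gene numbers. The floor was the 95th percentile of the mean log2 value of 492 vomeronasal receptor genes (5.48). Every difference is between 2 arrays. With 1 array per medium no test was run, and precision is limited by the number of arrays. Genes were counted at 1.2-fold and 1.5-fold.

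The members and lists were chosen with earlier results of these data known. All members, the remaining subunits, pathway genes at least 1.2-fold apart or furthest apart, neighbours of Fxyd7, the 5 genes nearest to it (leaving out predicted, RIKEN, microRNA, small RNA, pseudogene and receptor-repertoire genes) and the marker furthest apart in each list were named by rule, and the remaining named genes were chosen after their values were seen. Alternatives were median centring, quantile normalization, loess, an offset of 16, the mean of all probe sets and values set to the floor. The counting and scaling steps were tested on simulated data. Python 3.11.15 was used, with the libraries pandas 2.3.3, numpy 2.4.6, matplotlib 3.10.9 and statsmodels 0.14.6.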

Additional observations from a re-analysis of the deposited data

How the results depend on the processing

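Having no replicates to set a spread, a log2 value was taken as moved when it shifted by 0.1 or more. Under the 6 alternatives Fxyd7 lay between −0.63 and −0.62 for SEMA3E with IgG against control, between −0.51 and −0.50 for SEMA3E against control, and between −0.12 and −0.11 between the SEMA3E-containing arrays. The count of members at least 1.2-fold apart was 1, 1 and 0 under each of them. The member counted was Fxyd7, which was picked for being lower than control. Without a filter on low values, the share of genes at least 1.5-fold apart for SEMA3E with IgG against control was 0.129%, in place of 0.204%, because more genes were counted. Fxyd1 kept a negative difference between the array with IgG and control (−0.23 to −0.20), and so did Fxyd2 (−0.080 to −0.025) and Atp1b1 (−0.046 to −0.021). Members with identical deposited values moved off 0 under centring, loess and quantile normalization, the furthest being Fxyd2 between the SEMA3E-containing arrays (−0.038 after quantile normalization), and the median of all genes moved by at most 0.0062. The alternatives for Atp1b2 were added after seeing the data. No paired analysis was possible because each medium has 1 array. Alternatives act on summarised values and cannot recover any differences that the earlier processing may have removed.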

Other observations

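The second pair of FXYD genes that lie side by side, Fxyd6 and Fxyd2 on chromosome 9, was looked at after the values of the first had been seen. Within 100 kb of Fxyd2 there were 5 other genes, all measured, and Fxyd6 alone of them lay above the floor. Dscaml1 at 27.7 units and Tmprss13 at 15.5 units were identical on the 3 arrays. The noncoding gene Lncbate3 had 36.3 units with SEMA3E and IgG, 39.7 units with SEMA3E alone and 36.3 units in control medium, below the floor throughout. Another noncoding gene, 4833428L15Rik, lies directly next to Fxyd2. It had 24.9 units on both SEMA3E-containing arrays and 24.6 units in control medium, slightly higher than control but also below the floor. Fxyd2 was thus the single gene above the floor in this stretch whose value differed between arrays, by a log2 difference of −0.037.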
